A study of Mus musculus with 4 samples.

Results

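The genes described here encode enzymes that build cholesterol: Hmgcs1, Idi1, Fdps, Fdft1, Sqle, Lss, Cyp51, Nsdhl and Dhcr7. They were chosen by name, and every probe set whose platform annotation names exactly one of them was taken, which gave 21 of 22626 non-control probe sets for 9 of 12393 genes. The RNA came from the aorta of female mice aged 6 weeks. All of the mice were apoE-/-, so they lacked apolipoprotein E, which clears lipoprotein remnants from blood, also in the chow groups. The strain was C57BL/6 or C3H/HeJ (C3H below). Animals were weaned onto chow at 3 weeks, and from 4 weeks of age they either stayed on it, a condition the labels call hyperlipidemia, or ate a Western diet for 2 weeks, called extreme hyperlipidemia. Each of the 4 groups (C57BL/6 chow, C57BL/6 Western, C3H chow, C3H Western) had 1 array. No group has a replicate, how many animals stand behind an array is not stated in the labels, and no mouse with a working Apoe gene was analysed.

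Cells make cholesterol from acetyl-CoA through mevalonate, isoprenoid diphosphates, squalene and lanosterol. When membrane sterol is low, SCAP escorts the transcription factor SREBP2 from the endoplasmic reticulum to the Golgi, where it is cut free and switches on nearly every gene of the pathway. When sterol is plentiful, INSIG proteins hold SCAP back and the same genes are turned down, so they are widely read as a gauge of the sterol load of a cell. The design allows this gauge to be read for Western diet within each strain and for strain on each diet.

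SREBP2 binds short sterol response elements near the start sites of these genes, usually beside sites for its partners NF-Y and Sp1, so the promoters are shown before the values. The RefSeq promoter table (GRCm38.p6) holds windows of 300 bases for 6 of the 9 members (Hmgcs1, Idi1, Lss, Cyp51, Nsdhl and Dhcr7, the last with several start sites, 8 windows in all). They were searched on both strands for CACNCCAC (sterol response element type), TCACNTGA (an E-box type that SREBP can bind), CCAAT (NF-Y) and GGGCGG (Sp1). CACNCCAC was found in 1 of the 6 members, Hmgcs1, and in 6.24% of all 32851 windows. TCACNTGA was found in 0 of the 6 and in 4.18% of all windows. All 6 members had a CCAAT and a GGGCGG match in at least 1 window (6 and 7 of the 8 windows), against 37.4% and 35.7% of all windows. A match describes letters and not occupancy, and no match says only that these letters are not in this window. The 250 bases before the start site, 5′ to 3′ on the plus strand with matches in capitals, are printed for Hmgcs1, which has the sterol response element type match, for Idi1, whose signal was low on 1 array only, and for Nsdhl, whose signal was nearly equal on both diets. The pair after Hmgcs1 was picked after the matches and values were seen.

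Hmgcs1 (chr13:119690101-119690350): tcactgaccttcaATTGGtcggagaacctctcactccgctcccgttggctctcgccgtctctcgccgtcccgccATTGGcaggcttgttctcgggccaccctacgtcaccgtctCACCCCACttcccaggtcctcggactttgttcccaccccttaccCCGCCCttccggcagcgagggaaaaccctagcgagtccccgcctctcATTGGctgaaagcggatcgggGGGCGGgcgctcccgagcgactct

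Idi1 (chr13:8885356-8885605): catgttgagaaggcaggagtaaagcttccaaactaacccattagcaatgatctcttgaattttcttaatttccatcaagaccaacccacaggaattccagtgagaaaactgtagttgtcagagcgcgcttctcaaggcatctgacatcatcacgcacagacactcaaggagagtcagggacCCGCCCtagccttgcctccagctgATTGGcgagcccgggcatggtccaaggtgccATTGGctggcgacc

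Nsdhl (chrX:72918271-72918520): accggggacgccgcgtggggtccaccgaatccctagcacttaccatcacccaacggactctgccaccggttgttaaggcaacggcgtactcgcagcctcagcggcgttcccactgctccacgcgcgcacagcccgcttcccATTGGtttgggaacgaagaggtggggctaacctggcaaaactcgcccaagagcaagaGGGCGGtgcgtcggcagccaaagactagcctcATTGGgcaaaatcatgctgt

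In Hmgcs1 the match CACCCCAC starts 136 bases before the start site. Its NF-Y matches in the printed part start 237, 176 and 45 bases before it, and its Sp1 matches 92 and 24 bases before it. In Idi1 the NF-Y matches start 45 and 14 bases before the start site and the Sp1 match 69. In Nsdhl they start 109 and 20 bases before it, with the Sp1 match at 52.

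Values are quantile-normalized linear signals. Signals at or under 83.6, the 40th percentile of all values, count as too dim to order, and this limit is called the floor. Where 1 of a pair of arrays was that dim, the floor stands in for it and the fold reads "at least". By this measure 8 of the 21 probe sets (38.1%, against 38.6% of all probe sets) were above the floor on all 4 arrays, 9 on some and 4 on none. Each gene's representative is the set whose log2 signal, averaged over the arrays, is highest. Counted by that set, 8 of the 9 members were above the floor on the C57BL/6 chow array, 6 with Western diet, and 5 and 7 on the C3H chow and C3H Western arrays. Actin 3′/5′ signal ratios were 2.28 for C3H chow and 1.63 to 1.83 for the rest. The Gapdh 3′/5′ ratio did not single out C3H chow. It was 1.19 there, between 1.03 on C57BL/6 chow and 1.28 on C57BL/6 Western. Log2 correlations of the C3H chow array with the others were 0.705 to 0.726, where the other pairs reached 0.761. Leaving that array out removes the diet response of C3H and the strain difference on chow, and leaves the C57BL/6 response and the difference on Western diet as given below. The Apoe probe set was under the floor on every array (16.1 to 65.3), which checks the labels little, since where it lies relative to the disruption is not known.

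**Figure D1:**
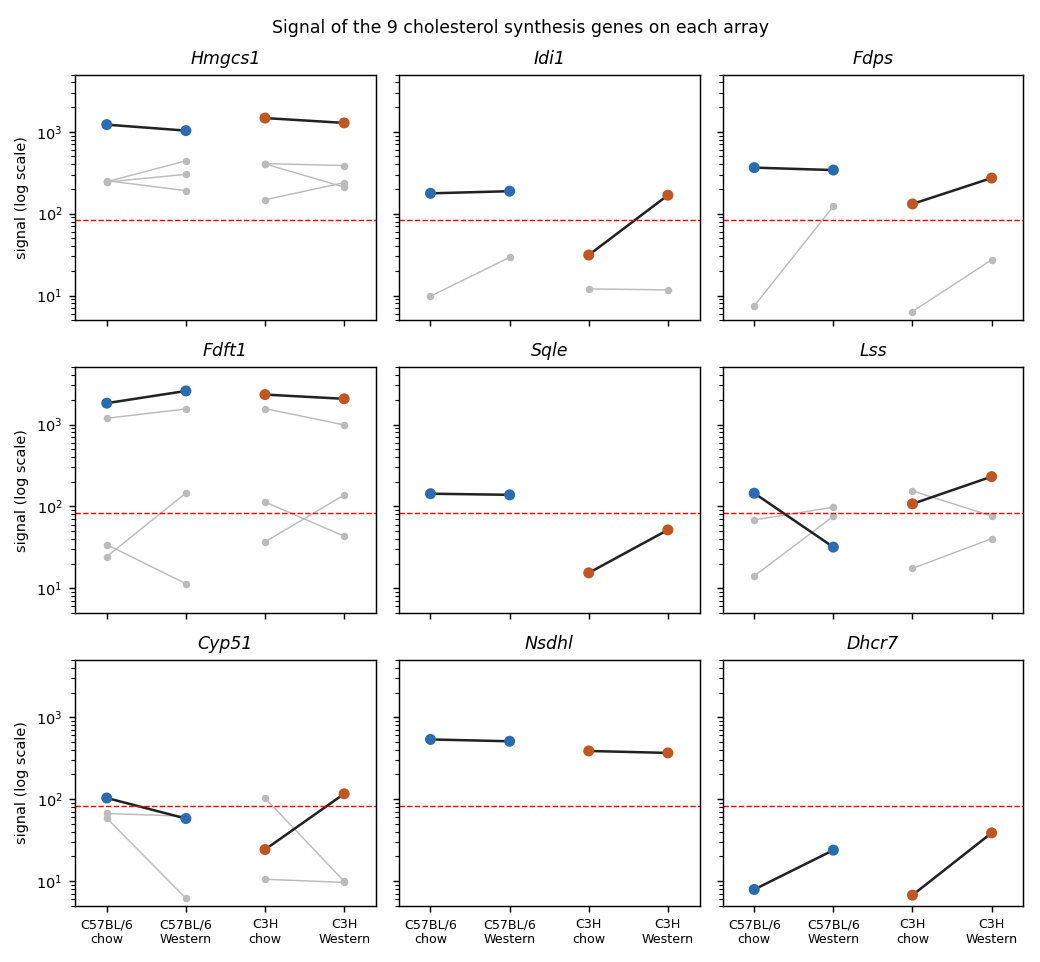
Signal (log scale) of every probe set of the 9 genes on the 4 arrays, with the representative set in colour (blue for C57BL/6, orange for C3H), further sets in grey and the floor of 83.6 as a red dashed line; each point is 1 array and lines join the diets of a strain. By their representative sets, Hmgcs1, Fdft1 and Nsdhl lie well above the floor on all arrays, while Idi1, Sqle and Cyp51 have C3H chow signals of 31.3, 15.4 and 24.2 under it.

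Hmgcs1 makes HMG-CoA, the substrate of the rate-limiting reductase of the pathway. Its representative set (1433443_a_at) had signals of 1222 and 1033 on the C57BL/6 chow and Western arrays, and of 1471 and 1283 on the C3H chow and Western arrays. The Western array was the lower of the pair in both strains, 1.18-fold in C57BL/6 and 1.15-fold in C3H. Its further 3 sets did not share a direction. Set 1433444_at was 1.33-fold and 1.92-fold lower with Western diet, while 1433446_at was 1.24-fold and 1.62-fold higher. Set 1433445_x_at was 1.80-fold higher in C57BL/6 and 1.06-fold lower in C3H. The 4 sets of Hmgcs1 thus spanned log2 -0.41 to 0.85 in C57BL/6 and -0.94 to 0.69 in C3H, wider than the response of the brightest set.

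Idi1 isomerizes isopentenyl diphosphate, and Fdps joins the resulting isoprene units into farnesyl diphosphate. The signals of Idi1 (1451122_at) were 177.1 (chow) and 188.1 (Western) in C57BL/6, and 31.3 (chow) and 168.2 (Western) in C3H. C3H chow was under the floor and the other arrays were nearly equal, so Idi1 was 1.06-fold higher with Western diet in C57BL/6 and at least 2.01-fold higher in C3H. Fdps (1423418_at) had signals of 364.8 and 340.8 on C57BL/6 chow and Western, and of 131.4 and 272.3 on C3H chow and Western. It too was lowest on C3H chow, and its Western signal was 1.07-fold lower than chow in the C57BL/6 pair and 2.07-fold higher in the C3H pair. The dimmer sets add little. The further set of Idi1 was under the floor on every array, and that of Fdps was above it on C57BL/6 Western alone (122.9). The mean of both Fdps sets was under the floor on both chow arrays, so it gives bounds alone, at least log2 1.29 higher with Western diet in C57BL/6 and at least 0.05 higher in C3H.

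Fdft1, squalene synthase, commits farnesyl diphosphate to sterols, and Sqle, squalene epoxidase, is a further control point of the pathway. Fdft1 was the brightest member, although signals of different probe sets do not compare transcript abundance. Its representative set (1438322_x_at) gave 1823 (chow) and 2568 (Western) in C57BL/6, and 2320 (chow) and 2059 (Western) in C3H. It was 1.41-fold higher with Western diet in C57BL/6 and 1.13-fold lower in C3H. Its next set (1448130_at) pointed the same ways, 1.30-fold higher and 1.58-fold lower. Another set, 1438918_at, was under the floor on both chow arrays and reached 145.6 and 137.7 on the Western arrays, which is at least 1.74-fold and 1.65-fold higher. The last set, 1438919_x_at, was above the floor on C3H chow alone (113.3), at least 1.36-fold lower with Western diet there. Sqle has 1 probe set (1415993_at), with signals of 142.9 and 138.5 in C57BL/6 and of 15.4 and 51.7 in C3H on chow and Western diet. Both C57BL/6 arrays were above the floor and both C3H arrays under it. Sqle was 1.03-fold lower with Western diet in C57BL/6, and no response can be given for C3H.

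Lss closes squalene epoxide into lanosterol, and Cyp51, Nsdhl and Dhcr7 trim lanosterol towards cholesterol. For Lss, set 1420013_s_at gave 144.8 (chow) and 31.8 (Western) in C57BL/6, and 107.4 (chow) and 230.9 (Western) in C3H. In C57BL/6 the Western signal was at least 1.73-fold lower than chow, while in C3H it was 2.15-fold higher, but set 1420014_at pointed the opposite way in both strains, at least 1.17-fold higher and at least 1.85-fold lower. The suffix _s_at marks a set that can bind further transcripts. Cyp51, the demethylase that antifungal azoles target in fungi, had 3 sets near or under the floor. Its representative (1450646_at) gave 103.3 and 58.0 in C57BL/6 and 24.2 and 116.2 in C3H, chow before Western, at least 1.24-fold lower with Western diet in C57BL/6 and at least 1.39-fold higher in C3H. Its set 1422533_at was the reverse in C3H, at least 1.24-fold lower. Nsdhl (1416222_at) had nearly equal signals on both diets within each strain, 535.8, 508.7, 387.5 and 366.6 in the same order. It was 1.05-fold and 1.06-fold lower with Western diet. Dhcr7, the last reductase of the pathway, was under the floor on all 4 arrays (6.73 to 38.7), so no fold is given.

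Counted over genes, no member measured on both arrays of a pair was 1.5-fold lower on Western diet, and Lss in C57BL/6 was that much lower by its bound. This count depends on the probe sets and the floor used: without x and s sets (probe sets that can bind further transcripts, left out after seeing the data) 1 was lower in C3H, Fdft1 at log2 -0.66, while a 25th percentile floor gave 1 lower in C57BL/6. In C57BL/6, 6 of the 9 members were measured on both arrays, and 0 of them were 1.5-fold higher or lower, where 13.8% of all 6776 measured genes were at least 1.5-fold higher and 14.3% lower, and 3.75% and 3.93% passed 2-fold. Their median log2 response was -0.06 (4 below and 2 above 0), against 0.0 for all genes, and -0.09 over 8 members with bounds included. In C3H, 2 of 5 measured members, Fdps and Lss, were at least 2-fold higher and 0 were 1.5-fold lower. Of all 6690 genes measured there, 17.1% were at least 1.5-fold higher and 17.1% lower, and 6.47% and 5.87% passed 2-fold. The median of the 5 was -0.08 (3 below and 2 above 0), against -0.01 for all genes, and 0.48 over 7 members with Idi1 and Cyp51 at their bounds. Both folds lie close to the 2-fold line, and with the values as deposited 0 of the 5 passed it. Of the 4 members measured on all 4 arrays, Hmgcs1 and Nsdhl were lower in both strains, and Fdps and Fdft1 pointed in opposite directions, but with equal array medians the log2 responses of Hmgcs1 (0.03) and Fdft1 (0.07) in C3H and of Nsdhl in C57BL/6 (0.03) and C3H (0.09) lay above 0. Across all 5646 such genes, 1317 were higher in both strains, 1232 lower in both and 3089 opposite. No comparison within a pair of arrays was tested, since neither side has a replicate. As a measure of the disagreement between probes, not of replicate error, probe sets of the same gene differed by a pooled SD of log2 0.48 in C57BL/6 and 0.57 in C3H (1675 genes).

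**Figure D2:**
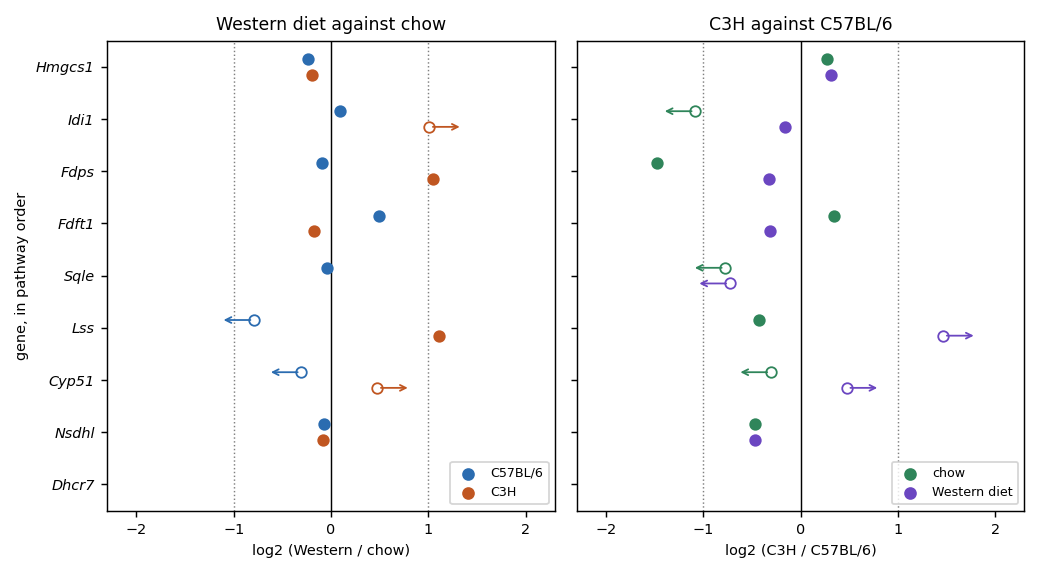
Log2 difference of each gene by its representative probe set, for Western diet against chow within each strain and for C3H against C57BL/6 on each diet; filled points were above the floor on both arrays, open points with arrows are bounds, and dotted lines mark 2-fold. Blue diet responses of measured genes stay between log2 -0.24 and 0.49, while Fdps and Lss in C3H reach 1.05 and 1.10.

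Between the strains, Fdps on chow was 2.78-fold lower in C3H. On that diet Idi1 was at least 2.12-fold, Sqle at least 1.71-fold and Cyp51 at least 1.24-fold lower by bound, and Nsdhl was 1.38-fold lower. The Cyp51 set 1422533_at pointed the opposite way, at least 1.24-fold higher. Lss was 1.35-fold lower by its representative set and at least 1.85-fold higher by 1420014_at. Hmgcs1 and Fdft1 were 1.20-fold and 1.27-fold higher by their representative sets. Of the further Hmgcs1 sets, 1433444_at and 1433445_x_at were 1.6-fold and 1.66-fold higher, and 1433446_at was 1.65-fold lower. Of 5 measured members, 1 was at least 2-fold lower (Fdps) and 0 were 1.5-fold higher. Among all 6605 measured genes, 20.8% were at least 1.5-fold higher and 20.4% lower, and 8.01% and 9.1% passed 2-fold. The members' median was log2 -0.43 (2 above and 3 below 0), against 0.03 for all genes. On Western diet, 0 of 5 measured members passed 1.5-fold. The share of all 6806 genes there was 13.3% higher and 13.4% lower at 1.5-fold, and 4.07% and 4.2% at 2-fold. The members' median was -0.32 (1 above and 4 below 0), against 0.0 for all genes. Nsdhl was 1.39-fold lower in C3H on this diet, close to its 1.38-fold on chow, and Fdps was 1.25-fold lower. Sqle was at least 1.66-fold, Fdft1 1.25-fold and Idi1 1.12-fold lower. Both C3H arrays were thus under both C57BL/6 arrays for Sqle, Nsdhl, Fdps and, by a small margin, Idi1. Hmgcs1 was the reverse by its representative set, with both C3H arrays above both C57BL/6 arrays and 1.24-fold higher on Western diet. Cyp51 was at least 1.39-fold higher in C3H on this diet. Lss was at least 2.76-fold higher in C3H by its representative set and at least 1.17-fold lower by 1420014_at.

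An additive limma fit with terms for strain and diet, over the 14915 probe sets that exceeded the floor on 2 or more arrays, is the one test this design allows. Its error is the strain-by-diet interaction, so the fit has 1 residual degree of freedom before moderation. Signals under the floor enter as measured, and 14 of the 21 member sets were included. For diet, 0 of the 14 passed, as did 0 of all probe sets (0.0%, with 367 at an unadjusted p under 0.05 over all sets and 0 among the members). The fitted diet effect of Hmgcs1 was log2 -0.22 with SE 0.30, that of Nsdhl -0.08 with SE 0.38, and that of Idi1 1.26 with SE 0.93, each with a limma adjusted p of 1.0. For strain, 0 of the 14 member sets passed, against 0.382% of all probe sets, and 0 were under an unadjusted p of 0.05. Fdps had a fitted strain difference of log2 -0.90 with SE 0.52 and Sqle of -2.32 with SE 1.42 (limma adjusted p = 0.847 for both). Without a mean trend in the variance limma also called 0 member sets for either term, with 1 set under an unadjusted p of 0.05 for each term. In the main fit, the 1 residual degree of freedom was joined with 17.3 prior degrees of freedom drawn from the tested probe sets. The p-values thus rest mostly on variance shared across probe sets and do not measure a spread between replicate arrays. The model has no term for a diet response that differs by strain. A difference like that of Fdps (log2 -0.10 in C57BL/6 and 1.05 in C3H) therefore enters the error. A p that misses the threshold does not show that the groups were alike.

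The other enzymes of the pathway were read in the same way. Of 10 further sterol synthesis enzymes on the array, 8 were measured in each strain. In C57BL/6 their median response was log2 -0.22, with 6 of 8 below 0, and 1 was at least 1.5-fold higher and 1 lower. Mvk, mevalonate kinase, was 2.26-fold higher (92.8 to 209.6), although its other set gave log2 -0.63, and Msmo1, a sterol methyl oxidase, was 1.76-fold lower (191.1 to 108.6). In C3H the median was -0.06, with 4 of 8 below 0, and 1 was at least 1.5-fold higher and 2 lower. Tm7sf2, a sterol reductase, was 2.46-fold higher there (87.1 to 214.1). Ggps1, which leads to geranylgeranyl diphosphate and not to sterols, was 2.80-fold lower (244.1 to 87.2), with its 4 sets spanning log2 -1.49 to 0.41, and Sc5d, a sterol desaturase, was 1.64-fold lower, with log2 0.02 by its other set. Msmo1 had the low C3H chow signal seen for Idi1 and Fdps, with 7.14 on that array against 107.4 on C3H Western, at least 1.29-fold higher with the diet. Between the strains, these further enzymes were not low in C3H as a list. Their median was log2 0.13 on chow (7 measured, 5 above and 2 below 0), against 0.03 for all genes. On Western diet it was -0.10 (8 measured, 3 above and 5 below 0). Mvk was 2.22-fold higher in C3H on chow (92.8 against 205.4), and Mvd, the decarboxylase that makes isopentenyl diphosphate, was 2.14-fold higher in C3H on chow (106.6 against 228.4) and 2.04-fold higher on Western diet (92.4 against 188.4).

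The regulators of the pathway were measured too. Srebf2, which encodes SREBP2, had signals of 152.5 and 243.1 on C57BL/6 chow and Western and of 185.4 and 88.5 on C3H chow and Western. It was 1.59-fold higher with Western diet in C57BL/6 and 2.09-fold lower in C3H, with log2 -1.07 and -0.78 by its 2 sets in C3H. On Western diet it was 2.75-fold lower in C3H than in C57BL/6 by its representative set, while its other set pointed the opposite way (at least log2 0.31, a bound). Among the members, the representative sets of Fdps and Lss, and by bound Idi1 and Cyp51, were higher on C3H Western than on C3H chow. Those of Hmgcs1, Fdft1 and Nsdhl were lower. Scap was 1.70-fold higher in C57BL/6 (158.1 to 268.3) and 1.24-fold lower in C3H, and Srebf1, the SREBP gene tied to fatty acid synthesis, was 2.00-fold and 1.33-fold higher. Srebf1 and Scap were also 2.50-fold and 2.29-fold higher in C3H on chow. Tmem97, a sterol-regulated membrane protein, was 2.08-fold lower with Western diet in C57BL/6 (206.5 to 99.4) and at least 1.79-fold lower in C3H. Stard4, a sterol carrier, was at least 2.46-fold lower with the diet in C57BL/6 and 1.46-fold higher in C3H. Its other set was at least log2 0.05 higher in C57BL/6, a bound. Over the 9 measured genes of SREBP regulation and sterol uptake, the median response was log2 0.27 in C57BL/6 (3 at least 1.5-fold higher and 1 lower) and 0.09 in C3H (0 higher and 1 lower). Between the strains, Insig2 was lower in C3H on both diets, 2.61-fold on chow (589.3 against 225.4) and 2.79-fold on Western diet (736.4 against 264.0), although its 3 sets spanned log2 -1.39 to 0.87 on chow. Npc1, which moves cholesterol out of lysosomes, was 2.01-fold and 2.03-fold lower in C3H.

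LXR, a receptor for oxidized sterols, switches on genes that export cholesterol, and these were set beside the synthesis genes. Sterol efflux genes and LXR targets had a median diet response of log2 0.50 in C57BL/6 (5 measured, 2 at least 1.5-fold higher and 0 lower) and of 0.50 in C3H (6 measured, 3 higher and 1 lower). The C57BL/6 median was the value of Pltp by its representative set, while its other set gave log2 -0.67 there and -0.76 in C3H. Abcg1, a cholesterol exporter, was 2.02-fold higher in C57BL/6 (377.6 to 764.2) and 2.69-fold higher in C3H (213.8 to 575.9). Abca1, its partner in efflux, was 1.97-fold and 1.27-fold higher, with its 3 sets spanning log2 0.18 to 0.98 and 0.03 to 0.68. Lpcat3, a phospholipid-remodelling LXR target, was 1.13-fold lower and 2.29-fold higher. Apoc1 was at least 5.35-fold higher in C57BL/6 (42.2 to 447.1) and 1.99-fold lower in C3H. Fatty acid synthesis genes, the targets of SREBP1, had medians of -0.04 and 0.01 over 13 genes. In C57BL/6 Acaca was 2.63-fold and Fads2 3.22-fold lower. In C3H Scd2 was 3.73-fold higher, with its 3 sets spanning log2 0.83 to 1.90. Between the strains, Scd2 was 4.12-fold and Acaca 2.08-fold lower in C3H on chow, with Elovl6 2.41-fold and Gpam 2.67-fold higher, and on Western diet Acaca was 2.48-fold, Elovl5 2.15-fold and Fads2 2.3-fold higher. The other set of Fads2 pointed the opposite way in both comparisons, with log2 1.61 for diet in C57BL/6 and -0.98 for strain on Western diet. For strain, the 3 sets of Scd2 spanned log2 -2.04 to -0.27 on chow, and the 2 of Elovl5 0.32 to 1.11 on Western diet. The difference between these lists and the cholesterol synthesis genes was not tested.

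**Figure D3:**
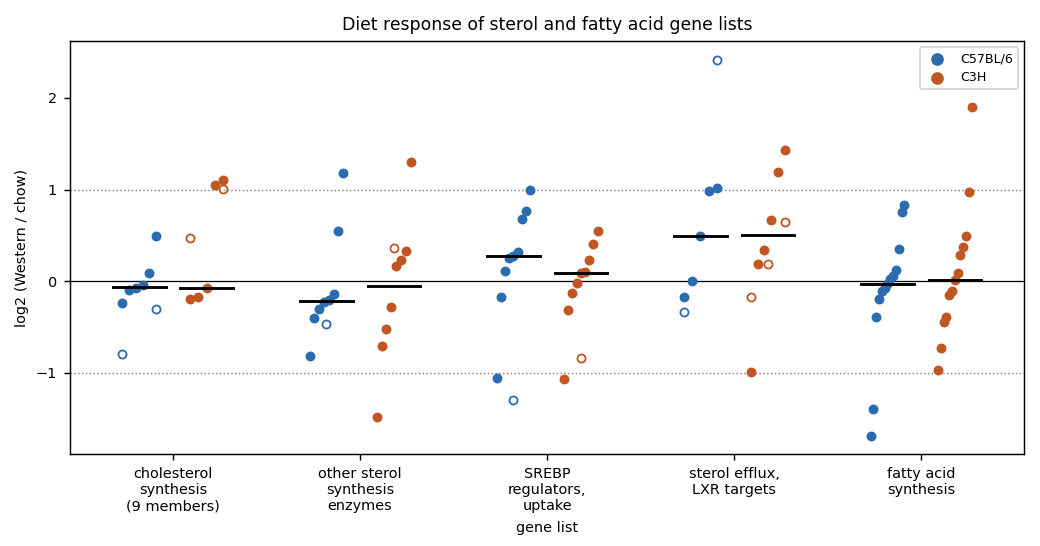
Log2 response to Western diet of each gene in 5 lists, by representative probe set, in C57BL/6 (blue) and C3H (orange); filled points were above the floor on both arrays, open points are bounds, black bars are medians of the filled points and dotted lines mark 2-fold. The bars of the cholesterol synthesis genes sit at -0.06 and -0.08, and those of the efflux list at 0.50 in both strains. The C57BL/6 efflux bar is the value of Pltp, whose other probe set gave -0.67.

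Summed signals of cell type markers differed between the arrays. The C3H chow array had the highest summed signal of 9 brown adipocyte markers (91850, against 46060 to 61860 on the other arrays) and of 10 adipocyte markers (113500, against 60950 to 80250). It had the lowest of 10 smooth muscle markers (45850, against 73650 to 103700) and of 9 fibroblast and matrix markers (19950, against 28840 to 87920). Such sums weigh the brightest markers most, and not every marker followed its sum. Des, Myocd and Synpo2 (373.7, 417.2 and 150.0 on C3H chow) were the smooth muscle markers not lowest on that array. Pparg was not highest there (1581, against 2273 on C57BL/6 Western). Every brown adipocyte marker was above the floor on all arrays, and Lep was the one adipocyte marker under it on all. Heart muscle markers, 10 genes, summed to 19280 and 14980 in C57BL/6 and to 999.6 and 859.1 in C3H on chow and Western diet. Macrophage markers, 10 genes, summed to 3848 and 4719 in C57BL/6 and to 3765 and 6180 in C3H. Skeletal muscle (8 genes), endothelial (8 genes) and Schwann cell (4 genes) markers summed to 605.5 to 1507, 6092 to 8074 and 2248 to 4015. The 9 cholesterol synthesis genes summed to between 4495 and 4891 on the 4 arrays, a ratio of 1.09. Fdft1 (1823 to 2568) and Hmgcs1 (1033 to 1471) made up most of each sum, and signals under the floor were included. The ratio therefore says little about the dimmer members. Of 5 markers of steroid-making cells, which also build on cholesterol, the sums were 532.7 to 740.3, with Cyp11a1 and Hsd3b1 under the floor on all arrays. The part of these markers' cell types in the differences above was not tested. In a whole aorta, fewer cells of a type and less RNA per cell cannot be told apart.

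A range over all 4 arrays can be given for the 4 members above the floor on each of them. The highest signal was 1.42-fold the lowest for Hmgcs1, 1.41-fold for Fdft1, 1.46-fold for Nsdhl and 2.78-fold for Fdps, against a median of 1.77-fold (quartiles 1.46 and 2.25) over the 5646 genes above the floor on all arrays. Averaged over these 4 members, the log2 signal minus its mean over the arrays was 0.12 (chow) and 0.14 (Western) in C57BL/6, and -0.21 (chow) and -0.06 (Western) in C3H. The members did not share 1 profile. Hmgcs1 was highest on C3H chow, where Fdps was lowest, Fdft1 was highest on C57BL/6 Western, and Nsdhl was higher on both C57BL/6 arrays. The genes with the smallest Euclidean distance to the mean profile were Gorasp2, Rell1, Gstm2, Tm7sf3 and Rpl11 (log2 0.0453 to 0.0674). With 4 points this likeness is weak, since 405 further genes (7.18%) had a Pearson r of at least 0.9 with the profile and 371 lay nearer to it than any member.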

How the data were processed

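The authors deposited linear intensities, 1 per probe set, from 1-colour Affymetrix arrays (22690 probe sets, of which the 64 controls were left out). Per the labels' protocols, cRNA was made from 8 ug of total RNA. No label names the software, background step or detection calls. The arrays as deposited share a 2% trimmed mean (250.11 to 250.12), with medians of 117.9, 110.3, 128.1 and 115.2 (C57BL/6 chow and Western, C3H chow and Western). They had thus been scaled to a common trimmed mean, by a step that the labels do not name. Log2 values were quantile normalized. Names came from the platform annotation (20380 probe sets with 1 gene, 691 with several, 1555 unnamed), and 20364 of those with 1 gene matched RefSeq by Entrez identifier.

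Pairs of arrays were compared by fold, at limits of 1.5 and 2, with no test. The additive fit used limma 3.58.1 (R 4.3.3), eBayes (variance trend on the mean) and a Benjamini-Hochberg threshold of 0.05, and was tested on simulated data. The simulated noise was alike for all probe sets, with no strain-by-diet interaction. It therefore checks the code and not the power of the fit on these arrays. All member probe sets were reported. From each pathway list, genes past 2-fold and up to 3 of the largest diet responses per direction and strain could be named, and cell type markers were summed. Alternatives covered scaling, floor, probe set choice and fit. The members and lists were chosen with earlier results of these data known. Python 3.11.15, numpy 2.4.6 and pandas 2.3.3 did the rest.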

Additional observations from a re-analysis of the deposited data

Results flagged for a closer look

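Among the members and pathway lists, Lss, Srebf2, Apoc1, Acaca and Gpam had diet responses of at least 1.5-fold in opposite directions in the strains. Each rests on 1 array per group, and the difference was not tested. The pattern was not particular to these genes, since several cell type markers had it too. Col1a1 had log2 -2.50 and 0.88, Eln -2.14 and 1.14, and Retn 0.76 and -1.57 in C57BL/6 and C3H. The share of all genes with this pattern was not counted. Lss had a log2 response of -0.79 in C57BL/6 (a bound) and of 1.10 in C3H, with the opposite signs by another of its probe sets. Srebf2 had 0.67 and -1.07, Apoc1 2.42 (a bound) and -0.99, Acaca -1.40 and 0.97, and Gpam, a triglyceride synthesis gene, 0.75 and -0.97 in C57BL/6 and C3H. No group holds enough arrays to look for outlying samples.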

How the results depend on the processing

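Each group has 1 array, so every value rests on single arrays, and a signal near the floor of 83.6 limits Idi1, Sqle, Lss, Cyp51 and Dhcr7 most. Value shifts were read against the pooled SD between probe sets of a gene. Members past 2-fold with diet in C3H numbered 0 with the deposited values, with the floor at the 60th percentile or with the mean of all probe sets of a gene, and 1 with cyclic loess or without x and s probe sets (added after seeing the data), against 2. At 1.5-fold this count was 0 with the higher floor and with the mean of sets, and without x and s sets it stayed at 2 but as 1 higher and 1 lower. In C57BL/6 the 1.5-fold count went from 0 to 1 higher with equal array medians, and to 1 lower with a floor at the 25th percentile. For strain on chow, the 2-fold count fell from 1 to 0 with the higher floor or the mean of sets, the 1.5-fold count was 2 with equal medians, 0 with the higher floor and 1 higher in place of 1 lower with the mean of sets, and the median of -0.43 became 0.27 and 0.24 with the higher floor and the mean of sets. For strain on Western diet the counts went from 0 to 2 at either fold with the lower floor, to 1 at either with the mean of sets, and to 1 at 1.5-fold without x and s sets. Without those sets Lss reversed in every comparison, each a bound, to log2 0.23 for diet in C57BL/6, -0.89 for diet in C3H, 0.89 for strain on chow and -0.23 for strain on Western diet. The additive limma fit called 5 probe sets for diet with no signal filter and 0 in every other fit, and for strain 119 with no filter, 27 with 1 probe set per gene and 0 without a mean trend, against 57, with 0 member sets with no filter or no trend. Over the 4 fully measured members the median diet response was 0.04 over both strains and the median strain difference -0.23 over both diets, with no test. Leaving out any 1 array leaves 1 intact pair for each. The medians were then -0.09 (C57BL/6 pair) or -0.13 (C3H pair) for diet, and -0.10 (chow pair) or -0.32 (Western pair) for strain. These are the medians of single pairs and cannot show the influence of an array. Equal medians moved the median of all genes for diet in C3H to 0.11, where the members' median was 0.09, and the share of higher calls at 2-fold from 52.4% to 66.0%, and for strain on chow from 46.8% to 36.5%. No paired analysis was possible because each group has 1 array and the labels give no replicate numbers.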
